A study of Mus musculus with 6 samples.

Results

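The lipid-sensing nuclear receptors and the sterol efflux genes controlled by liver X receptors (LXRs) were examined in activated mouse CD8+ T cells, the cytotoxic lymphocytes, after exposure to trans-vaccenic acid (TVA), found in the fat of ruminants. The 10 genes, taken by symbol from a table of 24589 gene symbols, were Ppara, Ppard, Pparg, Rxra, Nr1h2, Nr1h3, Abca1, Abcg1, Mylip and Srebf1, and 10 of 10 were present. Primary CD8+ T cells of wild-type (WT) mice, which the study's methods give as C57BL/6, were activated through CD3 and CD28, kept in Click's medium with fetal bovine serum, and then given 20 µM TVA or the solvent DMSO for 24 h. Each group had 3 bulk RNA libraries, 6 in all, and activation, medium and serum were common to both groups. The labels do not say whether the libraries of a group came from separate mice or cultures, so p-values measure only the spread between these libraries, which may be technical.

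Peroxisome proliferator-activated receptors (PPARs) bind fatty acids and LXRs bind oxysterols, and both classes act on DNA as heterodimers with a retinoid X receptor (RXR). PPARs are known for switching on fatty acid uptake, storage and oxidation. LXRs switch on the cholesterol exporters ABCA1 and ABCG1, the ubiquitin ligase MYLIP that limits lipoprotein uptake, and SREBP-1, the transcription factor of fatty acid synthesis, and in T cells LXR signaling has been tied to the sterol supply that proliferation needs.

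Expression was given as TPM, a transcript abundance that is corrected for transcript length and scaled so that every library adds up to the same total, so levels can be compared between genes but sequencing depth is unknown. A gene was tested when it reached 1 TPM in at least 3 libraries, which kept 10866 genes and 6 of the 10. Changes are log2 differences of TPM + 1 between TVA and DMSO, with a standard error (SE) or 95% interval from limma, a linear model that pools variance information over genes, and with p-values adjusted over all 10866 genes by the Benjamini-Hochberg method. A gene passed when its adjusted p was under 0.05. By that rule 925 genes (8.51%) passed, 574 higher with TVA (5.28%) and 351 lower (3.23%), and the median change of all tested genes was 0.04. The groups did not overlap, in either direction, in 38.6% of tested genes.

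Of the 6 tested genes, 1 passed. Rxra, the gene of RXRα, was lower with TVA, whereas Ppard, Nr1h2, Abcg1, Mylip and Srebf1 did not pass. That is 1 of 6 called in either direction against the 8.51% of all tested genes. Nearly all LXR transcript came from Nr1h2 and nearly all PPAR transcript from Ppard, while Nr1h3, Pparg and Ppara were under 1 TPM in each library. Rxra was the minor RXR transcript, and most RXR transcript came from Rxrb, the gene of RXRβ. Abca1, just under the level needed for testing, had higher values in every TVA library than in any DMSO library.

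**Figure D1:**
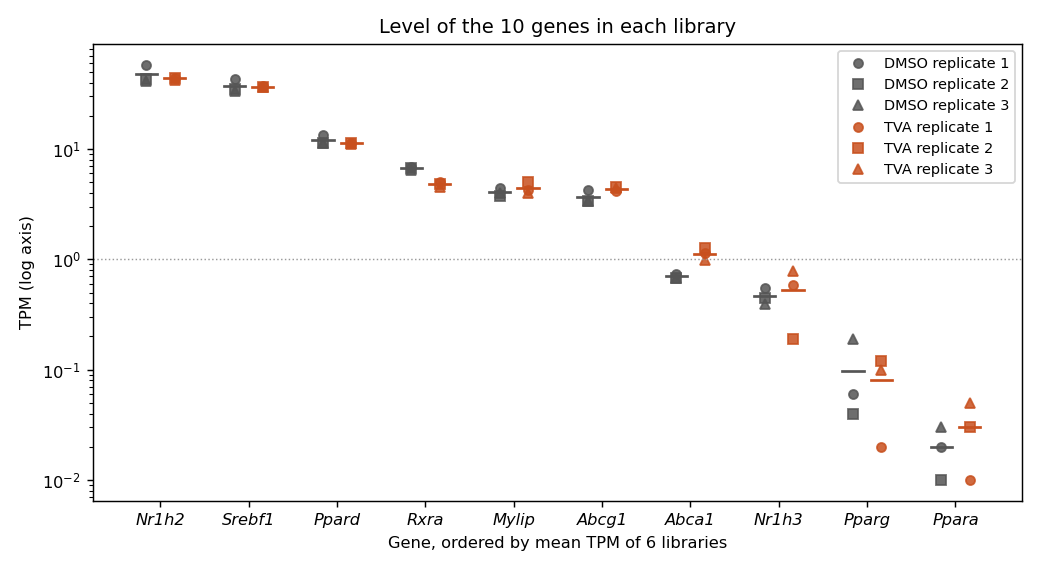
TPM of the 10 genes on a log axis, ordered by the mean of 6 libraries, with grey symbols for DMSO and orange for TVA, short bars at group means and a dotted line at 1 TPM. Nr1h2 and Srebf1 lie above 30 TPM in each library, whereas Nr1h3, Pparg and Ppara lie under 1 TPM in each, and Rxra and Abca1 are the genes whose groups do not overlap.

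Promoter sequence is shown for the LXR response element, a pair of hexamers separated by 4 bases (DR4), because Abca1 and Srebf1 are LXR targets whose levels are compared here. RefSeq promoter windows of GRCm38.p6 were present for 9 of the 10 genes, with 15 windows among 32851 in all, and Abcg1 was not matched. The 250 bases before each start site were searched on both strands. The ideal DR4 element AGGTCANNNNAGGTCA was in 0.0152% of all windows and in no window of the 9 genes, and the ideal DR1 element of PPAR and RXR, AGGTCANAGGTCA, was in 0.0335% of all windows and likewise in none of theirs. The half-site AGGTCA, which both ideal elements contain, was in 14.0% of all windows and in 1 window of Rxra and 2 of Pparg. A variant DR4 form, GGGTTANNNNCGGTCA, whose letters were set with the Abca1 and Srebf1 windows in view, was in 3 of the 32851 windows (0.00913%), those of Abca1, Srebf1 and the fatty acid synthase gene Fasn. The 250 bases before these 3 start sites follow, 5′ to 3′ on the strand of the gene, with the match in capitals as it reads on that strand, where it is the reverse complement of the motif. They lie at chr4:53159896-53160145 for Abca1, chr11:60210472-60210721 for 1 of the Srebf1 start sites and chr11:120824548-120824797 for Fasn, all on the minus strand.
Abca1: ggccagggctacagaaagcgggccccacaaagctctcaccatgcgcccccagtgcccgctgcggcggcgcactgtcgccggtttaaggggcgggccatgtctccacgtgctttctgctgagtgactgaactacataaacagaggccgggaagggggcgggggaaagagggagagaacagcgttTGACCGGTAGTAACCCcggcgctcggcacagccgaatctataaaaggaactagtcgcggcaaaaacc
Srebf1: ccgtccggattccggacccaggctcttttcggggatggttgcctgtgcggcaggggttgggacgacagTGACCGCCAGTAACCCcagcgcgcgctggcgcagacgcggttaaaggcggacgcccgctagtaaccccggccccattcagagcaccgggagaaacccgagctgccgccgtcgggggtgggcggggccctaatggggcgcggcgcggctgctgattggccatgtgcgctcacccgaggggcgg
Fasn: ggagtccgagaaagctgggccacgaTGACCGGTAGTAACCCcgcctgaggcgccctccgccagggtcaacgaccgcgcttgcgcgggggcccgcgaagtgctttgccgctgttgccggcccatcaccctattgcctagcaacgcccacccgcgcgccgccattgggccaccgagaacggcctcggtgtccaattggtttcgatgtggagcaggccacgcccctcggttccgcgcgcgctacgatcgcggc
The 16 bases in capitals are the same in Abca1 and Fasn, and counted from the start site the match begins at base -67 in Abca1, -225 in Fasn and -182 in Srebf1. These matches are descriptions of sequence, and binding was not measured. Whether the 3 genes differed in their change with TVA was not tested. Abca1 was above its DMSO range in each TVA library, while the groups overlapped for Srebf1 and Fasn. Fasn, named for its sequence match, was at 88.5, 72.4 and 69.0 TPM in DMSO against 80.7, 83.8 and 80.5 TPM in TVA, a log2 change of 0.10 (95% interval -0.10 to 0.30, limma adjusted p = 0.45, or 0.19 with limma adjusted p = 0.043 after a correction for GC content).

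Rxra lies at chr2:27676440-27762957 on the plus strand (GRCm38, the build mm10, GENCODE vM21 annotation), as a gene of 5462 exonic bases that overlap no other annotated exon. Its level was 6.94, 6.78 and 6.46 TPM in the 3 DMSO libraries and 5.02, 4.77 and 4.57 TPM in the 3 TVA libraries. The lowest DMSO library was thus above the highest TVA library, as in 11.2% of tested genes. Group means were 6.73 ± 0.244 and 4.79 ± 0.226 TPM (SD, n = 3 each), a ratio of TVA to DMSO of 0.712. The log2 change was -0.42 (SE 0.058, 95% interval -0.55 to -0.28), and limma gave an adjusted p of 0.011.

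The direction for Rxra was the same in all 13 other settings tried in which it was tested, with log2 changes from -0.48 to -0.32 and adjusted p from 0.0059 to 0.065. The call was lost without TVA replicate 2 (-0.42, limma adjusted p = 0.065) and without TVA replicate 3 (-0.39, adjusted p = 0.061), where fewer libraries enter the fit. The libraries differed in how TPM depended on transcript GC content, with a Spearman coefficient of -0.40 between log2 change and GC across tested genes, which are not independent replicates. Rxra transcripts are 58.6% GC, against a median of 50.5% over tested genes. When that dependence was subtracted within each library, the Rxra change was -0.32 with a limma adjusted p of 0.021.

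RXRα shares its dimerization role with RXRβ and RXRγ. Rxrb was the major RXR transcript, at 52.6, 47.3 and 46.1 TPM in DMSO against 46.7, 45.5 and 47.4 TPM in TVA, and Rxrg was listed at 0 in all 6 libraries. The Rxrb groups overlapped, and its log2 change of -0.06 did not pass (limma adjusted p = 0.46). Rxra made up 11.7%, 12.5% and 12.3% of summed RXR TPM in the DMSO libraries and 9.70%, 9.49% and 8.79% in the TVA libraries. The RXR sum itself ran from 52.6 to 59.5 TPM with DMSO and from 50.3 to 52.0 TPM with TVA, so the drop in Rxra left most RXR transcript in place.

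The genes whose profile over the 6 libraries was closest to that of Rxra, by root mean square difference of centred log2 values among 8934 genes averaging 5 TPM or more, were Hemk1 (0.029), Atg9b (0.032) and Fndc10 (0.034). Hemk1, a methyltransferase gene, went from 19.4 ± 0.619 to 13.7 ± 0.524 TPM (SD, n = 3 each). Atg9b, an autophagy gene, went from 7.67 ± 0.541 to 5.52 ± 0.329 TPM, and Fndc10 from 7.49 ± 0.179 to 5.53 ± 0.176 TPM. These genes were picked for likeness to Rxra, so their changes carry no further information about it.

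The LXR receptors were represented by Nr1h2, the gene of the widely expressed LXRβ, at chr7:44549616-44553951 on the minus strand. Nr1h2 had the highest level of the 10 genes, at 58.1, 43.0 and 41.5 TPM in DMSO against 44.1, 44.4 and 42.6 TPM in TVA. DMSO replicate 1 stood above the other 5 libraries, and without it the groups lay side by side. The log2 change was -0.10 (SE 0.11, 95% interval -0.37 to 0.16, limma adjusted p = 0.56), and it was 0.05 without DMSO replicate 1 (limma adjusted p = 0.41) and 0.08 after GC correction (0.43), so no direction can be given.

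Nr1h3, the gene of LXRα, which is best known from macrophages and liver, was at 0.55, 0.45 and 0.39 TPM in DMSO against 0.59, 0.19 and 0.79 TPM in TVA. Its TVA values enclosed the DMSO values, and it was under the level needed for testing. The gene lies at chr2:91184061-91202834 on the minus strand and shares 34 exonic bases with Gm13783, so a few reads could belong to either. Nr1h2 accounted for 98.2% to 99.6% of the summed TPM of both LXR genes over the 6 libraries.

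Among PPARs, Ppard, whose product PPARδ is the broadly expressed form, at chr17:28232700-28301474 on the plus strand, was at 13.5, 11.4 and 11.2 TPM in DMSO against 11.2, 11.3 and 11.2 TPM in TVA. The TVA libraries were nearly equal and matched DMSO replicates 2 and 3, with DMSO replicate 1 above them. The log2 change was -0.09 (SE 0.071, 95% interval -0.25 to 0.08), with a limma adjusted p of 0.42 and a value of 0.05 after GC correction (adjusted p = 0.45).

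Pparg, the regulator of fat cell formation, at chr6:115360951-115490399, was at 0.06, 0.04 and 0.19 TPM in DMSO against 0.02, 0.12 and 0.10 TPM in TVA. Ppara, the main fatty acid sensor of liver, at chr15:85734983-85802819, was at 0.02, 0.01 and 0.03 TPM in DMSO against 0.01, 0.03 and 0.05 TPM in TVA. The groups overlapped for both, and neither was tested. Ppard made up 98.1% to 99.7% of the summed TPM of the 3 PPAR genes. Ordered by their means over 6 libraries, the receptors ran from Nr1h2 at 45.6 TPM through Ppard at 11.6, Rxra at 5.76, Nr1h3 at 0.493 and Pparg at 0.0883 to Ppara at 0.0250, and the ranges of Pparg and Ppara overlapped.

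**Figure D2:**
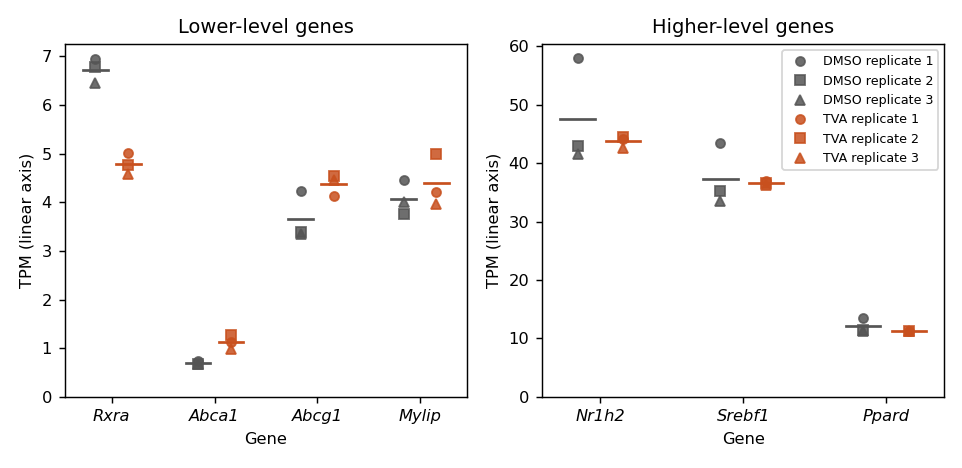
TPM on linear axes from 0 for 7 of the genes, each symbol a library and each bar a group mean of 3. Rxra lies lower in the 3 TVA libraries (4.57 to 5.02) than in the 3 DMSO libraries (6.46 to 6.94), Abca1 lies higher, and DMSO replicate 1 is the highest library for Nr1h2, Srebf1 and Ppard.

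Of the LXR targets, Abca1, which moves cholesterol and phospholipid onto apolipoprotein acceptors, lies at chr4:53030787-53159895 on the minus strand. It was at 0.74, 0.68 and 0.68 TPM in DMSO against 1.13, 1.27 and 0.98 TPM in TVA. Each TVA library was above each DMSO library, as in 19.0% of the 16749 genes above 0 TPM in any library (28.5% had groups that did not overlap in either direction). The means were 0.700 ± 0.0346 and 1.13 ± 0.145 TPM (SD, n = 3 each), a ratio of 1.61.

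Since Abca1 reached 1 TPM in TVA libraries alone, and in too few of them, it was not part of the test above. When all 16749 genes above 0 TPM were fitted, of which 2.95% passed, Abca1 differed by 0.32 on the log2 scale (SE 0.059, 95% interval 0.18 to 0.46, limma adjusted p = 0.048), just inside the threshold. An exact two-sided permutation test of its log2(TPM + 1) values gave p = 0.10, the smallest that 3 against 3 libraries allow. Leaving out each library in turn moved the difference between 0.27 and 0.37, and with a pseudocount of 0.1 in place of 1 it was 0.61, since a pseudocount of 1 compresses differences at this level.

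Abcg1, which exports cholesterol to mature lipoprotein particles, at chr17:31057675-31117988 on the plus strand, was at 4.24, 3.39 and 3.35 TPM in DMSO against 4.13, 4.53 and 4.45 TPM in TVA. DMSO replicate 1 lay within the TVA range, so the groups overlapped. The means were 3.66 ± 0.503 and 4.37 ± 0.212 TPM (SD, n = 3 each), and the log2 change of 0.21 (SE 0.086) did not pass, with a limma adjusted p of 0.14. It passed without DMSO replicate 1, at 0.30 with a limma adjusted p of 0.040, and in no other setting tried (adjusted p from 0.090 to 0.34).

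Mylip, whose product is a ubiquitin ligase that limits lipoprotein uptake, at chr13:45389742-45412022 on the plus strand, was at 4.45, 3.76 and 4.0 TPM in DMSO against 4.22, 4.99 and 3.96 TPM in TVA. The groups overlapped, and the log2 change was 0.09 (SE 0.089, 95% interval -0.12 to 0.29, limma adjusted p = 0.53).

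Srebf1, the gene of SREBP-1, at chr11:60199089-60222581 on the minus strand, was at 43.4, 35.3 and 33.5 TPM in DMSO against 36.9, 36.6 and 36.2 TPM in TVA. The TVA libraries lay within the DMSO range, whose upper end was again DMSO replicate 1. The log2 change was -0.02 (SE 0.088, 95% interval -0.23 to 0.18, limma adjusted p = 0.88), and it was 0.09 without that library (adjusted p = 0.17) and 0.11 after GC correction (adjusted p = 0.14). The values are per gene, so the SREBP-1a and SREBP-1c transcripts were not separated, and 175 exonic bases are shared with Mir6922 and Rai1.

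**Figure D3:**
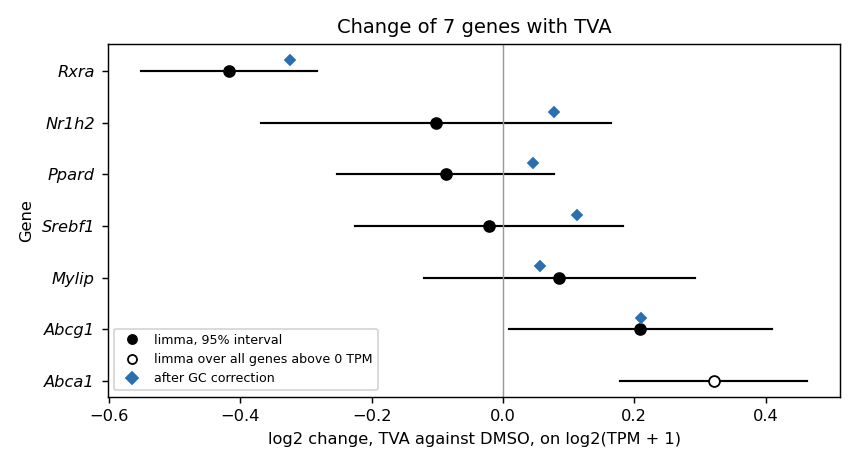
Log2 change of TPM + 1 with TVA for 7 genes, with 95% intervals from limma, the open circle for Abca1 from the fit over all genes above 0 TPM, and blue diamonds for values after GC correction. The intervals of Rxra (-0.55 to -0.28), Abcg1 and Abca1 exclude 0 before adjustment for multiple tests, and the diamonds of Nr1h2, Ppard and Srebf1 lie on the other side of 0 from their circles.

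Other genes of these pathways were counted in lists. Changes are set beside the 5.28% of all tested genes that were higher and the 3.23% that were lower. Counts at an unadjusted p under 0.05 by limma are set beside the 3451 of all 10866 tested genes that met that cut in either direction. Of 18 receptor partners and coregulators, 15 were tested and 1 rose, with a median log2 change of 0.02 against 0.04 for all tested genes. It was Nrip1, the corepressor RIP140 of ligand-bound receptors, at 14.3, 12.1 and 12.2 TPM in DMSO against 16.4, 17.8 and 16.5 TPM in TVA. The groups did not overlap, and the log2 change was 0.37 (SE 0.070, limma adjusted p = 0.024). The call was lost in 4 of the 6 fits without 1 library, those without DMSO replicate 3 or any 1 of the TVA libraries (p from 0.074 to 0.12), and in the fit over all genes above 0 TPM (0.057).

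The enzymes that make or clear oxysterols, the LXR ligands, were mostly near 0. Of 8 listed, 3 were tested and limma called 0 of them, with 1 lower at an unadjusted p under 0.05 and a median of -0.18. Ch25h, which makes 25-hydroxycholesterol, ran from 0.08 to 0.23 TPM over the 6 libraries, and Cyp7a1, the rate-limiting enzyme of bile acid synthesis, was listed at 0 in each.

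Of 17 other LXR targets, 9 were tested, and 4 rose and 0 fell (1 lower at an unadjusted p under 0.05 by limma), with a median of 0.28. Lpl, the lipase that frees fatty acids from circulating triglyceride, was at 1.38, 1.60 and 1.5 TPM in DMSO against 4.68, 4.51 and 4.18 TPM in TVA. The groups were well apart, and the log2 change was 1.13 (SE 0.070, limma adjusted p = 5.0e-04), which passed in each of the other settings in which Lpl was tested. Lpl is also a PPAR target, so its place in this list does not tell the receptors apart.

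Lpcat3, which places polyunsaturated chains in phospholipids, was at 34.4, 33.4 and 32.1 TPM in DMSO against 42.8, 41.6 and 39.5 TPM in TVA (log2 change 0.30, limma adjusted p = 0.016). The stearoyl-CoA desaturase Scd2 was at 61.7, 60.6 and 60.7 TPM in DMSO against 77.7, 80.3 and 78.7 TPM in TVA (0.37, limma adjusted p = 0.0026). Both had groups that did not overlap, and the Lpcat3 call was lost without any 1 of the TVA libraries (p from 0.051 to 0.089). Scd1, the related desaturase, was at 0.72, 0.59 and 0.70 TPM in DMSO against 1.31, 1.32 and 1.36 TPM in TVA (0.48, limma adjusted p = 0.016). It reached 1 TPM through the TVA libraries alone, which makes a difference between groups a condition of its being tested, but it also passed over all genes above 0 TPM (adjusted p = 0.012). Without any 1 of the TVA libraries 2 of the list passed, and without DMSO replicate 2 there were 4 higher and 2 lower.

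Of the targets under the level needed for testing, Cd5l, Mertk and Abcg5 were lower in every TVA library than in any DMSO library. None was higher in every TVA library. Of the 16749 genes above 0 TPM, 28.5% had groups that did not overlap in either direction. Cd5l, an LXR target secreted by macrophages, named after its values were seen, was at 0.62, 0.70 and 0.63 TPM in DMSO against 0.04, 0.25 and 0.20 TPM in TVA, and in the fit over all genes above 0 TPM its log2 difference was -0.51 (limma adjusted p = 0.029). Mertk was at 0.26, 0.22 and 0.17 TPM in DMSO against 0.13, 0.14 and 0.11 TPM in TVA. Abcg5 was at 0.05, 0.02 and 0.04 TPM in DMSO and at 0 in TVA. Both were named after their values were seen, and neither passed in that fit (limma adjusted p = 0.11 and 0.15). Apoc1 was listed at 0 in each library.

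Macrophage markers bear on the LXR targets, since those genes are prominent in macrophages and the libraries were bulk. In bulk libraries a change in the number of cells of a type and a change in RNA per cell cannot be told apart. Of 15 myeloid markers, 11 were tested, and 4 rose (Lyz2, Tyrobp, Mpo and S100a9) and 0 fell (0 lower also at an unadjusted p under 0.05 by limma), with a median of 0.33. Their summed level was 83.4 to 88.4 TPM with DMSO and 106.9 to 112.6 TPM with TVA, against 5964 to 6390 TPM for 11 CD8 T cell markers over both groups. Of the CD8 T cell markers, 2 rose, Cd3g and Prf1 (limma adjusted p = 0.0063 and 0.038), and 0 fell. Without any 1 of the TVA libraries at most 2 of the myeloid markers passed, as without DMSO replicate 3. Cd8a itself was at 274 to 318 TPM and Cd4 at 3.33 to 4.46 TPM, and in the B cell, CD4 T cell, NK cell and red cell and platelet lists 4 genes passed, Tyrobp of the NK list higher and Cd40lg, Hbb-bt and Ppbp lower. None of the 15 was at 0 in all libraries. Of the macrophage markers, Csf1r ran from 0.64 to 0.82 TPM in DMSO and 1.00 to 1.28 TPM in TVA, a ratio of means of 1.52 beside 1.61 for Abca1. Adgre1 ran from 0.26 to 0.50 TPM in DMSO and 0.57 to 0.89 TPM in TVA (ratio 1.85), and Marco from 0.03 to 0.04 TPM in DMSO and 0.07 to 0.15 TPM in TVA (ratio 2.91). These 3 were higher in every TVA library than in any DMSO library, as in 19.0% of the 16749 genes above 0 TPM. Csf1r did not pass (limma adjusted p = 0.082). It reached 1 TPM through the TVA libraries alone, so a difference between groups was a condition of its being tested. Adgre1 and Marco were too low to be tested. The groups overlapped for Cd163, at no more than 0.08 TPM, and for Itgax, with means of 0.813 TPM in DMSO and 0.833 TPM in TVA. They also overlapped for Cd68, at 7.10, 7.88 and 6.52 TPM in DMSO against 6.07, 8.61 and 8.50 TPM in TVA (limma adjusted p = 0.66). The part of these cells in the values of Abca1, Abcg1, Lpl and Cd36 was not tested.

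Of 33 PPAR targets, 23 were tested, and 11 rose and 0 fell (1 lower at an unadjusted p under 0.05 by limma), with a median of 0.15. Beyond Plin2, the lipid droplet coat gene, and Cpt1a, the gate of mitochondrial fatty acid entry, with log2 changes of 1.87 and 1.54, the list held Slc25a20, the carnitine carrier of the mitochondrial membrane. Slc25a20 was at 38.2, 39.2 and 38.9 TPM in DMSO against 60.6, 61.9 and 61.3 TPM in TVA (log2 change 0.65, SE 0.035, limma adjusted p = 4.4e-04). Cd36, the fatty acid transporter that is a target of PPARγ and LXR, was at 0.84, 1.47 and 1.57 TPM in DMSO against 2.94, 2.95 and 2.79 TPM in TVA (0.78, SE 0.13, limma adjusted p = 0.017). The groups did not overlap for these 2 genes. Pdk4, a PPAR target that restrains pyruvate oxidation, named after its values were seen, was too low for the main test at 0, 0.03 and 0.02 TPM in DMSO against 0.68, 0.68 and 0.62 TPM in TVA, and passed over all genes above 0 TPM (difference 0.71, limma adjusted p = 7.0e-04). The targets Fabp1, Vnn1, Cyp4a10 and Cyp4a14, known from liver, were listed at 0 in each library. The number of PPAR targets that rose was 5 without any 1 of the TVA libraries, where Cd36 was not called (limma adjusted p from 0.077 to 0.089), and 7 without DMSO replicate 3. Without DMSO replicate 2 there were 11 higher and 2 lower. Of 9 listed fatty acid binding proteins, which carry ligands to these receptors, 2 were tested and limma called 0, the pair Fabp5 and Crabp2 having a median of 0.16 and both being higher at an unadjusted p under 0.05.

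**Figure D4:**
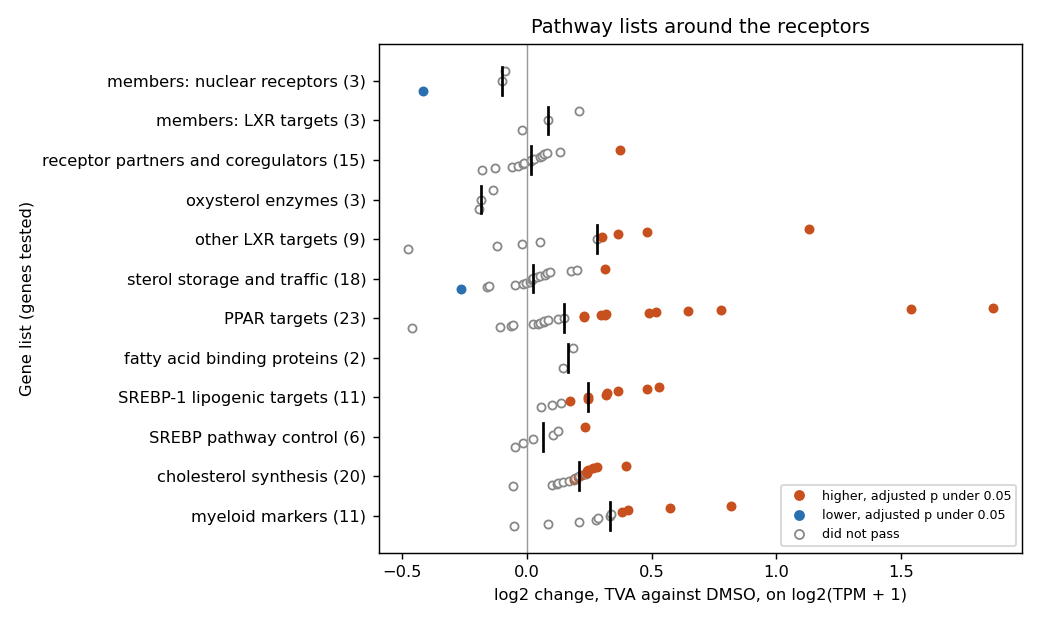
Log2 change with TVA of each tested gene in 12 lists, with the number tested in brackets, orange and blue for genes that passed higher and lower, open circles for genes that did not pass, and a black bar at the list median. Medians run from -0.18 for the oxysterol enzymes to 0.33 for the myeloid markers, and the PPAR targets hold the 2 points farthest to the right, Plin2 and Cpt1a at 1.87 and 1.54.

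Srebf1 RNA did not pass, but genes of fatty acid synthesis that SREBP-1 controls did. Of 15 lipogenic targets, 11 were tested, and 8 rose and 0 fell (0 lower also at an unadjusted p under 0.05 by limma), with a median of 0.24. The 8 include Scd1, which reached 1 TPM through the TVA libraries alone. Fads2, the Δ6 desaturase, was at 4.31, 3.91 and 3.06 TPM in DMSO against 6.52, 5.93 and 5.10 TPM in TVA (log2 change 0.53, SE 0.12, limma adjusted p = 0.037). Elovl6, which lengthens palmitate, was at 4.92, 4.81 and 4.83 TPM in DMSO against 6.11, 6.51 and 6.35 TPM in TVA (0.32, SE 0.052, limma adjusted p = 0.017). Scd1 and Scd2 are in this list as well as the LXR list, so the counts of the lists are not independent. Without any 1 of the TVA libraries 1 of the 11 passed, without DMSO replicate 3 there were 3, and over all genes above 0 TPM there were 4, with Fads2 not among them (limma adjusted p = 0.080).

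The cholesterol branch is led by SREBP-2, which senses sterol in the membrane of the endoplasmic reticulum. Srebf2 was at 115, 91.7 and 93.6 TPM in DMSO against 101, 97.2 and 97.2 TPM in TVA, and Scap, its escort, had a log2 change of -0.05 (limma adjusted p = 0.66). Neither passed, the Srebf2 change being -0.02 with a limma adjusted p of 0.90. In the list of 7 SREBP control genes, of which 6 were tested and Spring1 was not in the table, 1 rose, the retention factor and SREBP target Insig1 (0.23, limma adjusted p = 0.021), a call lost without any 1 of the TVA libraries (p from 0.089 to 0.11).

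Of 20 cholesterol synthesis genes, 20 were tested, and 10 rose and 0 fell, with a median of 0.21. At an unadjusted p under 0.05 by limma 16 were higher and 0 lower, beside 3451 of all 10866 tested genes in either direction. Dhcr7, which makes cholesterol in the last step, was at 13.4, 14.6 and 11.6 TPM in DMSO against 18.5, 17.1 and 17.4 TPM in TVA (log2 change 0.40, SE 0.079, limma adjusted p = 0.028). Acat2 (0.28), Ebp (0.27) and Idi1 (0.25) also rose, with limma adjusted p of 0.027, 0.016 and 0.038. Without any 1 of the TVA libraries 0 of the 20 passed, and 4 passed without DMSO replicate 3, while the median stayed between 0.19 and 0.22 in those 4 fits. Over all genes above 0 TPM 6 passed, and Dhcr7, Acat2 and Idi1 did not (limma adjusted p from 0.053 to 0.071). Acat2 and Idi1 were also lost under median-of-ratios scaling (limma adjusted p = 0.059 and 0.084).

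For handling of sterol inside the cell, 18 of 20 genes were tested, and 1 rose and 1 fell, with a median of 0.02. Lipa, the lysosomal acid lipase that frees cholesterol from its esters, was at 21.6, 22.8 and 20.8 TPM in DMSO against 27.4, 27.2 and 27.3 TPM in TVA (log2 change 0.31, limma adjusted p = 0.012). Gramd1a, which carries plasma membrane cholesterol to the endoplasmic reticulum, was at 95.8, 84.3 and 84.1 TPM in DMSO against 75.2, 72.0 and 71.9 TPM in TVA (-0.26, limma adjusted p = 0.036). Without any 1 of the TVA libraries limma called 0 of these genes, and over all genes above 0 TPM Gramd1a did not pass (limma adjusted p = 0.068).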

How the data were processed

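Primary mouse CD8+ T cell libraries (3 DMSO, 3 TVA) were grouped by title. The authors deposited 1 table of TPM per gene symbol. STAR, RSEM and mm10 are named in the submitters' processing notes, without versions. TPM keep no depth, so intervals and limits that need counts are not given. From the deposited TPM, log2(TPM + 1) was fitted with limma 3.58.1 (trend, two-sided, R 4.3.3) over 10866 genes with at least 1 TPM in at least 3 libraries, and p-values were Benjamini-Hochberg adjusted over all of them at 0.05. The fit was tested on simulated data. Members and lists were chosen with earlier results of these data known. Named were the members, up to 4 passing genes per list with the largest change, direct partners, the 3 nearest profiles, and genes marked in the text, and 1 gene of the sterol list is not reported here and was left out of its counts. Alternatives were other pseudocounts, filters and scalings, no trend, a replicate block, GC correction by loess (span 0.5) on GENCODE vM21 transcripts, chosen knowing that GC dependence differed, and each library left out. Promoters are from RefSeq GRCm38.p6.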

Additional observations from a re-analysis of the deposited data

How the results depend on the processing

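The number of the 10 genes that passed was 1, and it was 2 over all genes above 0 TPM (Abca1 added), 0 at a mean of at least 10 TPM (Rxra is not tested there) and 0 to 2 with a library left out. The number of all genes that passed was 925, and it was 494 over all genes above 0 TPM, 608 at a mean of at least 10 TPM, 218 with the replicate block, and 102 (without TVA replicate 2) to 2242 (without DMSO replicate 2) with a library left out. Median-of-ratios scaling gave 754 calls, 292 of them higher, and quantile normalization 775 with 357 higher, against 574 higher of 925. Of 81 values of the tested members under alternatives, 73 kept their direction and side of the threshold. GC correction reversed Ppard (0.046), Nr1h2 (0.078), Srebf1 (0.11), Rxrb (0.036), Srebf2 (0.061) and Scap (0.0024), none of which passed. Leaving out a library reversed Nr1h2 (-0.19 to 0.048), Srebf1 (-0.095 to 0.088), Srebf2 (-0.076 to 0.086) and Scap (-0.099 to 0.038), each without DMSO replicate 1. The cause was not tested. Same-numbered libraries did not deviate together (correlations 0.16, 0.035 and -0.077), so numbers were not taken as pairs. With the replicate block Rxra passed (adjusted p = 0.035), while PPAR targets had 7 calls, lipogenic targets 3, cholesterol synthesis 1 and receptor partners 0 (Nrip1 adjusted p = 0.061). Unknown depth limits what can be said of genes under 1 TPM.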
